A study of Mus musculus with 2 samples.

Results

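Genes of the machinery that fills, docks and fuses synaptic vesicles were followed across the cell classes of mouse hippocampus. The 8 members were taken by symbol from the 41605 genes of the count tables: Slc17a7, Syp, Syn1, Syn2, Vamp2, Snap25, Syt1 and Rims1, with 1 row each in both libraries. The rule takes them by symbol and uses no measured value, but the symbols were chosen with earlier results of these data known. A further 84 genes of the release pathway, in 6 lists, are set beside them near the end.

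The 2 libraries are droplet single-cell RNA libraries (10x Genomics 3' chemistry, version 3), each made from hippocampal cells pooled from 3 wild-type C57BL/6 male mice 10 weeks old and cleaned of debris and myelin on a percoll gradient. The series sets enzymatic release at 37 °C for 30 min against mechanical release at 4 °C, but the labels tie neither library to a method, and the files of library 2 carry another sample number than its title. Both libraries are therefore unassigned: they share strain, sex, age and tissue, their values stand side by side, and no ratio between them is given. With 1 pool in each, there is no replicate and no test, and the 95% intervals given throughout cover counting error only.

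Neurons store transmitter in synaptic vesicles and release it when calcium enters the nerve terminal. A vesicle SNARE protein zips together with SNARE proteins of the plasma membrane and pulls both membranes into fusion, a calcium sensor on the vesicle triggers the last step, and scaffold proteins of the active zone hold vesicles near calcium channels. In the hippocampus the granule cells and pyramidal cells release glutamate and the interneurons release GABA, so the fusion machinery is shared while the transporter that loads the vesicle differs.

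Sequence upstream of the gene starts was available from RefSeq (GRCm38.p6) for 6 of the 8 genes, with 8 start sites; Snap25 and Vamp2 had no entry. The windows of 3 genes are printed 5′ to 3′ on the gene's strand: Slc17a7, which differed most between neuronal subfields, Rims1, which had the highest ratio of neurons over microglia in both libraries, and Syn1, which alone held 2 of the 3 motifs searched. The windows are chr7:45163671-45163920 on the plus strand for Slc17a7, chr1:22806159-22806408 on the minus strand for Rims1 and chrX:20921005-20921168 on the minus strand for Syn1, where the 164 bases that lie before the gene in the GENCODE annotation are kept. Capitals mark motif matches.
Slc17a7: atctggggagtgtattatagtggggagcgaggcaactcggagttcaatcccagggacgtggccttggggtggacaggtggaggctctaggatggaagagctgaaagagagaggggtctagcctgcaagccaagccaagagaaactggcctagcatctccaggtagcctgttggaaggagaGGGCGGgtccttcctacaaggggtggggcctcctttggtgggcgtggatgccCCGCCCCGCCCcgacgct
Rims1: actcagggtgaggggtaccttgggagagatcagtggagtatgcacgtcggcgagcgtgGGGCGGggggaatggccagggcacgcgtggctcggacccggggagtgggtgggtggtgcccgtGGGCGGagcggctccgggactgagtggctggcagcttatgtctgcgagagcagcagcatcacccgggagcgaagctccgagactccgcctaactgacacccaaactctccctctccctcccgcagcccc
Syn1: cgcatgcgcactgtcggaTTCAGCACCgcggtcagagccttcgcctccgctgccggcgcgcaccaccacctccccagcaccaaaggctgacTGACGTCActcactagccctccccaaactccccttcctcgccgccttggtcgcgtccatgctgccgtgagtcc

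The 3 motifs were searched on both strands in the 250 bases before each of 32817 RefSeq start sites. The left arm of the RE1 element (TTCAGCACC) began 232 bases before the RefSeq start of Syn1 and was present at 99 of all starts, 0.302%. A cAMP response element (TGACGTCA) began 159 bases before the same start, and 1.55% of all starts held one. The GC box (GGGCGG) was found at 32.7% of all starts and at 5 of the 8 starts of these genes, in Rims1, Slc17a7, Syn2, Syp and Syt1. Syn2 and Syt1 each had a further start without a match. Slc17a7 had 3, of which the pair nearest the start, at 18 and 13 bases before it, overlap each other on the reverse strand. No match of one motif overlapped a match of another, and a match describes the letters alone.

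Library 1 held 12306 barcodes and 18783691 UMIs (unique molecules counted after removal of PCR copies), and library 2 held 6448 barcodes and 29356086 UMIs. After filters on depth, genes, mitochondrial share and doublet score, 6793 cells with a median of 1715 UMIs were kept in library 1 and 2127 cells with a median of 6427 UMIs in library 2. The libraries had 19 barcodes in common. Each cell was put in a class by the share of its UMIs in marker genes, none of which is a member or a gene of the pathway lists, and class names rest on these RNA markers alone. Library 1 gave 4333 neurons, among them 450 dentate granule, 392 CA1 pyramidal, 440 CA3 pyramidal and 115 interneuron cells, with 674 microglia, 266 astrocytes and 77 oligodendrocytes. Library 2 gave 17 neurons, 1509 microglia, 152 endothelial cells, 47 oligodendrocytes and 21 astrocytes, so its neuronal values rest on 17 cells. The gates used these same marker lists, so raised markers are no independent check of the class names. In library 1, 12 of 13 neuronal, 11 of 11 microglial and 12 of 12 interneuron markers were raised. In the subfields 10 of 12 were raised in granule cells, 8 of 10 in CA1 and 7 of 11 in CA3. The CA1 list summed to 4194 CPM in the CA1 class and to as much as 3282 CPM in another class. In library 1, 1015 cells had neuronal marker shares close to the limit of 1% on either side, and the 845 cells in no class carried 3025 CPM of the 8 genes summed.

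In both libraries the summed level of the 8 genes was highest in neurons among the classes described. Summed over the 8, the level was 3745 CPM (counts per 1000000 UMIs of the class; 3703 to 3786) in neurons of library 1, against 434 CPM (402 to 468) in microglia. In library 2 the sum was 4416 CPM (3817 to 5084, from 194 UMIs) in neurons, against 88.6 CPM (82.9 to 94.5) in microglia. The microglia gate limits neuronal markers, and without that limit, tried after the data were seen, microglia had 452 CPM in library 1 and 88.8 CPM in library 2. Astrocytes of library 1 had 781 CPM and oligodendrocytes 509 CPM, and endothelial cells of library 2 had 63.7 CPM. The microglial level is given beside each class as a background that can hold free RNA, and its source was not tested. The 13 neuronal markers, which the gate limits in microglia, are given beside it. They summed to 23341 CPM in neurons and 1033 CPM in microglia of library 1. In library 2 they summed to 17506 CPM in neurons and 98.4 CPM in microglia. None of the 13 was at 0 UMIs in either class of microglia. Astrocytes of library 1 had 1905 CPM of these markers. Oligodendrocytes had 1937 CPM of them in library 1 and 1208.5 CPM in library 2, where the 8 genes had 138 CPM.

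With no replicates, a gene was called higher or lower by size alone: a ratio of at least 4 between classes, among genes with at least 10 CPM in either class and at least 20 UMIs over both. In library 1, 7 of the 8 genes were higher in neurons than in microglia by this rule, where 26.1% of 12146 genes tested were. In library 2, 7 of 8 were higher, where 27.9% of 10049 genes were. None of the 8 was lower in neurons in either library, where 16.5% of genes in library 1 and 5.42% in library 2 were. The 8 genes were chosen with earlier results of these data known, so these counts are no independent evidence. The gene not called was Vamp2 in both libraries. The ratios of the 7 ran between 5.61 for Syn1 and 24.4 for Rims1 in library 1. For scale, the neuronal non-coding RNA Meg3 had a ratio of 23.5 (22.6 to 24.4) in library 1 and 284 (262 to 308) in library 2.

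**Figure D1:**
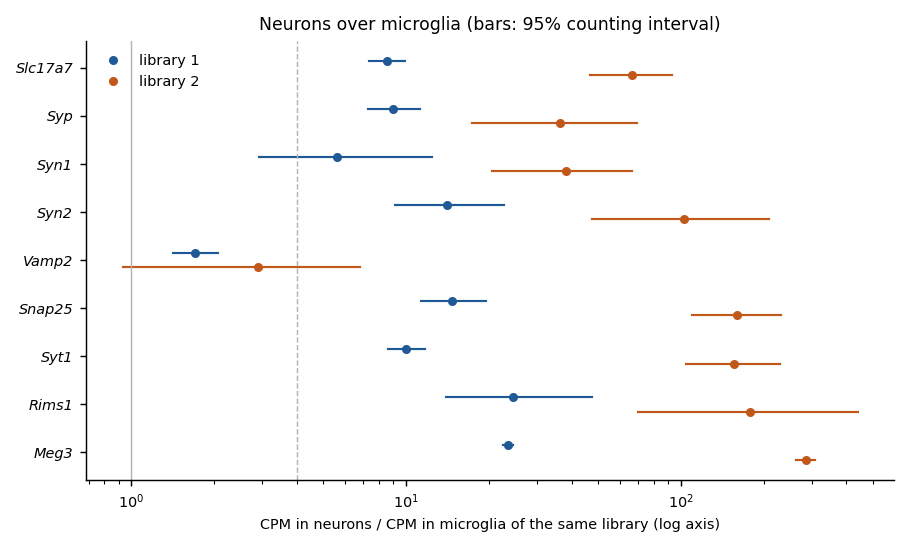
Ratio of the CPM in neurons over the CPM in microglia of the same library for each of the 8 genes and Meg3 (log axis; points are ratios, bars 95% counting intervals, solid line 1, dashed line 4). Vamp2 lies at 1.70 in library 1 and 2.88 in library 2, left of the dashed line, and the other 7 genes lie right of it in both.

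Slc17a7 (ENSMUSG00000070570, chr7:45163949-45176142, plus strand of GRCm38, the build of all gene positions here) encodes VGLUT1, the transporter that loads glutamate into vesicles of most cortical and hippocampal excitatory neurons. In library 1 it reached 996 CPM (975 to 1017) in neurons, against 117 CPM (101 to 136) in microglia, a ratio of 8.50 (7.33 to 9.91). Library 2 gave 1024 CPM (747 to 1371) in neurons, against 15.4 CPM (13.1 to 18.1) in microglia, a ratio of 66.3 (46.5 to 92.9). That ratio was 18.8 with at least 2000 UMIs a cell, which left 8 neurons, and 17.6 with the stricter gate, which left 3. Within the neurons of library 1 the interneurons stood apart from the 3 glutamatergic classes: 135 CPM (91.4 to 191) in interneurons, against 1310.4 CPM (1248 to 1375) in CA3, 1021 CPM (955 to 1090.2) in CA1 and 1012 CPM (939.8 to 1089) in granule cells. The ratios of interneurons over CA3, CA1 and granule cells were 0.103, 0.132 and 0.133, and Slc17a7 was the only one of the 8 genes past the 2-fold limit used between subfields. Of all genes tested, 12.2%, 13.6% and 16.0% were lower in interneurons by that limit in these 3 comparisons. None of the 8 genes was higher in interneurons, where 10.5%, 8.58% and 9.47% of all genes were. CA3 was above CA1 with intervals apart, at a ratio of 1.28 (1.18 to 1.39), while CA1 and granule cells overlapped. The interneuron level was close to that of microglia of the same library, at a ratio of 1.15 (0.757 to 1.69). Slc32a1, which encodes the vesicular GABA transporter, ran the other way: 369 CPM in interneurons, against 7.0 CPM in granule cells, 3.98 CPM in CA3 and 3.43 CPM in CA1.

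Outside neurons, Slc17a7 had 186 CPM (143 to 237) in astrocytes and 133 CPM (89.5 to 189) in oligodendrocytes of library 1. In library 2 it had 6.62 CPM in endothelial cells, 1 UMI in oligodendrocytes and 0 UMIs in astrocytes, which allows up to 29.8 CPM there. After each cell was thinned to 1000 UMIs, 60.7% of neurons of library 1 had a Slc17a7 UMI, against 11.7% (9.39 to 14.4) of microglia. Before thinning these shares were 77.3% at a median of 1746 UMIs and 22.8% at a median of 2208.5 UMIs. Among interneurons the thinned share was 13.04% (7.49 to 20.6), inside the microglial interval, so no difference from microglia is read from it, and among CA3 cells it was 73.9% (69.5 to 77.9).

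Syp (ENSMUSG00000031144, chrX:7638471-7653256, plus strand) encodes synaptophysin, an abundant membrane protein of the vesicle. It had 505 CPM (490.3 to 521) in neurons of library 1, against 56.3 CPM (45.04 to 69.5) in microglia, a ratio of 8.97 (7.25 to 11.2). Neurons of library 2 had 250.4 CPM (125 to 448), against 6.89 CPM (5.37 to 8.70) in microglia, a ratio of 36.4 (17.4 to 69.1). The subfields were close: 569 CPM in interneurons, 567 CPM in granule cells, 475 CPM in CA1 and 460.2 CPM in CA3, with every neighbour's interval overlapping. Pooled over all depths, granule cells and CA3 were apart, at a ratio of CA3 over granule cells of 0.812 (0.714 to 0.924). The ratio of CA1 over granule cells was 0.838 (0.729 to 0.963). Depth differed, with medians of 2773 UMIs in CA3, 2160 in CA1 and 1491 in granule cells. Within the depth bins given below, which hold fewer UMIs, the intervals of CA3 and CA1 overlapped those of granule cells in every bin. From the shallowest to the deepest bin CA3 had 530.5, 542, 518 and 412 CPM. Granule cells had 626, 516, 523 and 665 CPM. Gm14703, annotated on the opposite strand over the end of Syp, was also neuronal, at 195 CPM in neurons and 11.8 CPM in microglia of library 1. Whether counting used strand is not given in the sources used, so reads of the pair cannot be told apart.

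Syn1 (ENSMUSG00000037217, chrX:20860511-20921004, minus strand) and Syn2 (ENSMUSG00000009394, chr6:115134902-115282006, plus strand) encode synapsins, phosphoproteins that tether vesicles to each other and to the cytoskeleton in the reserve pool. Syn1 had 33.1 CPM (29.3 to 37.2) in neurons of library 1, against 5.89 CPM (2.69 to 11.2, from 9 UMIs) in microglia. Its ratio of 5.61 has an interval of 2.92 to 12.4, which reaches below the 4-fold limit. In library 2 Syn1 had 341 CPM (191 to 563) in neurons, against 8.95 CPM (7.21 to 10.99) in microglia, a ratio of 38.1 (20.5 to 66.3). That ratio was 10.4 with at least 2000 UMIs a cell, from 8 neurons, and 7.50 (0.188 to 43.0) with the stricter gate, from 3. Across subfields of library 1 it was even, between 30.4 CPM in interneurons, from 7 UMIs, and 33.1 CPM in CA1. Syn1 took 0.883% (0.783 to 0.993) of the 8 genes' UMIs in neurons and 1.36% in microglia of library 1. In library 2 it took 7.73% (4.39 to 12.4) in neurons and 10.1% (8.22 to 12.3) in microglia. Araf overlaps the last bases of Syn1 on the other strand and was not neuronal, at 76.3 CPM in neurons and 62.2 CPM in microglia of library 1.

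Syn2 had 193 CPM (184 to 203) in neurons of library 1, against 13.7 CPM (8.51 to 21.0) in microglia, a ratio of 14.0 (9.15 to 22.7). Library 2 gave 273 CPM (141 to 477) in neurons, against 2.66 CPM (1.75 to 3.87) in microglia, a ratio of 103 (47.5 to 209.9) that was 60.02 with the stricter gate. Its subfield levels were 244 CPM in CA3, 193 CPM in granule cells, 184 CPM in CA1 and 169 CPM in interneurons. Intervals of neighbours in this order overlapped. CA3 and CA1 were apart, at a ratio of 1.32 (1.09 to 1.61), and the ratio of CA3 over granule cells was 1.26 (1.03 to 1.55). Syn2 was the only one of 6 genes tested that was called higher in astrocytes than in microglia of library 1, where 10.1% of all genes were. None was lower, where 15.6% were. It had 66.8 CPM (42.3 to 100.2, from 23 UMIs) in astrocytes, a ratio of 4.86 (2.57 to 9.23) over microglia. The 21 astrocytes of library 2 had 69.6 CPM (28.0 to 143), from 7 UMIs. Timp4, a protease inhibitor gene that lies inside Syn2 on the opposite strand, was at 261 CPM in astrocytes, 126 CPM in neurons and 12.4 CPM in microglia of library 1, and at 328 CPM in astrocytes and 0.394 CPM in microglia of library 2. Its part in the astrocyte count of Syn2 was not tested.

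Snap25 (ENSMUSG00000027273, chr2:136713453-136782428, plus strand) encodes the plasma membrane SNARE protein SNAP-25, and Vamp2 (ENSMUSG00000020894, chr11:69088490-69092384, plus strand) encodes synaptobrevin, its partner on the vesicle. Snap25 had 549.9 CPM (534 to 566) in neurons of library 1, against 37.3 CPM (28.3 to 48.4) in microglia, a ratio of 14.7 (11.4 to 19.5). Neurons of library 2 had 1161 CPM (864 to 1527), against 7.28 CPM (5.72 to 9.14) in microglia, a ratio of 159 (109 to 231). CA3 led the subfields with 635 CPM (592 to 681), apart from 480.2 CPM (431 to 534) in granule cells, and CA1 at 444 CPM and interneurons at 417 CPM followed with overlapping intervals. The ratio of CA3 over CA1 was 1.43 (1.27 to 1.62), under the 2-fold limit. These values pool cells of all depths, and CA3 cells were deeper than granule cells. From the shallowest to the deepest bin given below, CA3 had 511, 504, 613 and 675 CPM and granule cells 438, 497, 515 and 623 CPM. The intervals of that pair overlapped in every bin. CA3 and CA1 were apart only between 2000 and 3000 UMIs, at 613 CPM (538 to 697) against 455 CPM (392 to 526).

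Vamp2 had the lowest ratio of neurons over microglia of the 8 genes in both libraries. It had 140.5 CPM (133 to 149) in neurons of library 1, against 82.5 CPM (68.7 to 98.2) in microglia, a ratio of 1.70 (1.42 to 2.06). In library 2 it had 114 CPM (37.0 to 266) in neurons, against 39.5 CPM (35.7 to 43.5) in microglia, a ratio of 2.88 with an interval of 0.932 to 6.79 that includes 1. With a 20% mitochondrial limit this ratio was 5.02 and with Leiden clusters 7.13, both past the 4-fold limit. Oligodendrocytes of library 1 had 195 CPM (141 to 261) and astrocytes 177 CPM (135 to 227), ratios of 2.36 (1.63 to 3.35) and 2.15 (1.55 to 2.94) over microglia. None of the 6 genes tested was called higher in these oligodendrocytes by the 4-fold limit, where 7.97% of all genes were, and none lower, where 12.6% were. In library 2 Vamp2 had 105 CPM (77.9 to 138) in oligodendrocytes and 42.6 CPM (34.8 to 51.7) in endothelial cells, in endothelial cells a ratio of 1.08 (0.861 to 1.34) over microglia. Neither Vamp2 nor Slc17a7, the 2 genes that could be tested in endothelial cells, was called, where 13.7% of all genes were higher and 12.1% lower. Across neuronal subfields Vamp2 ran between 126 CPM in granule cells and 169 CPM in interneurons, with overlapping intervals.

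Syt1 (ENSMUSG00000035864, chr10:108497650-109010982, minus strand) encodes synaptotagmin 1, the calcium sensor for fast release. It had 1135 CPM (1112 to 1158) in neurons of library 1, against 113 CPM (97.0 to 131) in microglia, a ratio of 10.0 (8.62 to 11.7). Library 2 gave 1024 CPM (747 to 1371) in neurons, against 6.59 CPM (5.11 to 8.37) in microglia, a ratio of 155 (104 to 230.1). Granule cells were the low class: 1228 CPM in interneurons, 1222 CPM in CA3 and 1185 CPM (1114 to 1259.8) in CA1 overlapped, and granule cells had 919.8 CPM (851 to 993). The ratio of CA1 over granule cells was 1.29 (1.17 to 1.42). Gm5136 and Gm47477 lie inside Syt1 on the same strand. In library 1 Gm5136 had 47.4 CPM in neurons and 1.31 CPM in microglia, and Gm47477 had 59.1 CPM in neurons and 1 UMI in microglia. Gm47472, inside Syt1 on the opposite strand, had 20.8 CPM in neurons and 0 UMIs in microglia.

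Rims1 (ENSMUSG00000041670, chr1:22286251-22805994, minus strand) encodes RIM1, an active zone scaffold that links vesicles to calcium channels. It had 192 CPM (183 to 202) in neurons of library 1, against 7.86 CPM (4.06 to 13.7, from 12 UMIs) in microglia, a ratio of 24.4 (14.0 to 47.4). Neurons of library 2 had 228 CPM (109 to 419), against 1.28 CPM (0.681 to 2.19, from 13 UMIs) in microglia, a ratio of 178 (69.9 to 439). Among subfields CA3 had 266 CPM (238 to 296), granule cells 210.0 CPM (178 to 246), interneurons 165 CPM (117 to 226) and CA1 134 CPM (111 to 160.1), and neighbours in this order overlapped. The ends did not: the ratio of CA3 over CA1 was 1.99 (1.61 to 2.48), just under the limit of 2, which 5.04% of 10212 genes reached in that direction. With Leiden clusters the highest subfield over the lowest, CA3 over interneurons, reached 2.10 and passed the limit. At 1000 UMIs a cell, 25.9% (21.9 to 30.3) of CA3 cells had a Rims1 UMI, against 10.97% (8.05 to 14.5) of CA1 cells. Before thinning these shares were 52.0% at a median of 2773 UMIs and 24.7% at a median of 2160.0 UMIs, and 0.742% of thinned microglia of library 1 had one.

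**Figure D2:**
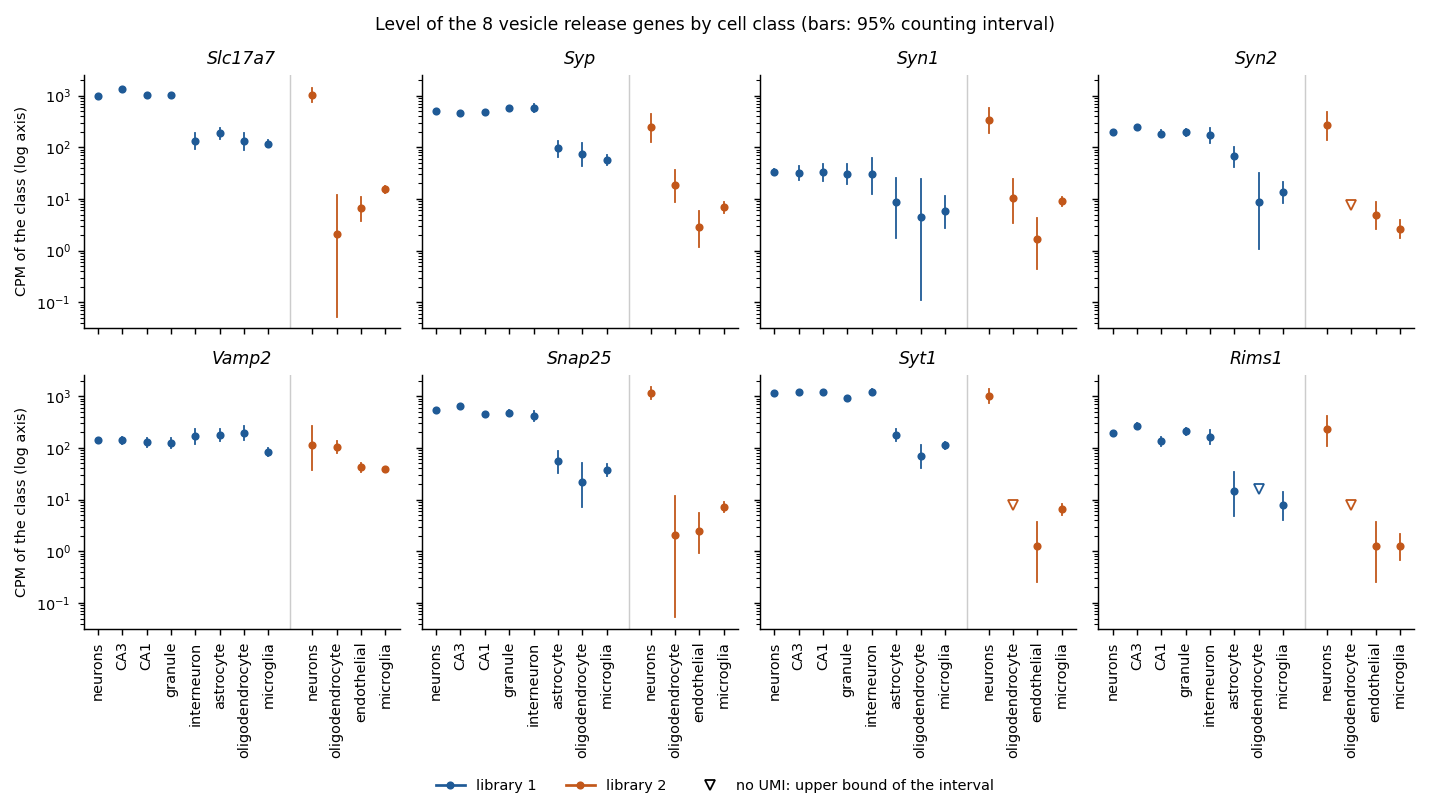
Level of each of the 8 genes in CPM (log axis) by class, library 1 in blue and library 2 in orange, with 95% counting intervals as bars and open triangles at the upper bound where a class had no UMI. Vamp2 is at 140.5 CPM in neurons and 82.5 CPM in microglia of library 1, and Slc17a7 is at 135 CPM in interneurons and 117 CPM in microglia.

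By subfield, 7 of the 8 genes were called higher than in microglia in each of the granule, CA1 and CA3 classes, where 20.5%, 21.7% and 22.1% of all genes were, and Vamp2 was the exception each time. None was lower in these classes, where 18.0%, 19.1% and 19.0% of all genes were. In interneurons 5 of the 7 genes tested were called, where 15.1% of all genes were (16.0% were lower, with no member among them); Slc17a7 and Vamp2 were not, and Syn1 had too few UMIs. Summed over the 8, CA3 had 4310.2 CPM (4196 to 4427), CA1 3604 CPM (3479.7 to 3732), granule cells 3539 CPM (3403 to 3680.0) and interneurons 2882 CPM (2667 to 3109). CA3 was separated from the others, as were interneurons, while CA1 and granule cells overlapped. Without Slc17a7, a sum taken after the values were seen, CA3 had 2999.8 CPM (2905 to 3097), interneurons 2747 CPM (2537 to 2969.7), CA1 2583 CPM (2478 to 2692) and granule cells 2527 CPM (2412 to 2646). In that sum interneurons overlapped each of the other 3 subfields. Between the 3 glutamatergic classes, as gated, no member passed the 2-fold limit in either direction. Of all genes, 5.04% were higher and 6.41% lower in CA3 than in CA1, 8.08% higher and 9.96% lower in CA3 than in granule cells, and 8.18% higher and 8.36% lower in CA1 than in granule cells.

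The make-up of the 8 genes' UMIs differed between classes, and what sets it was not tested. Vamp2 took 3.75% (3.54 to 3.97) of these UMIs in neurons of library 1, 38.3% (29.4 to 47.8) in oligodendrocytes, 22.7% (17.8 to 28.2) in astrocytes and 19.0% (16.1 to 22.2) in microglia. In library 2 it took 2.58% (0.842 to 5.91) in neurons, 75.8% (63.6 to 85.5) in oligodendrocytes, 66.9% (58.9 to 74.2) in endothelial cells and 44.6% (41.3 to 47.9) in microglia. The Vamp2 share in each of these non-neuronal classes lay above the neuronal interval of its library. Slc17a7 had similar shares in library 1, at 26.6% in neurons, 26.1% in oligodendrocytes, 23.8% in astrocytes and 27.0% in microglia, and stood at 4.67% (3.19 to 6.56) in interneurons. In library 2 it took 23.2% (17.5 to 29.8) in neurons, 17.4% (15.02 to 20.1) in microglia, 10.4% (6.06 to 16.3) in endothelial cells and 1.52% (0.0384 to 8.16) in oligodendrocytes. Rims1 took 5.13% (4.89 to 5.38) in neurons and 1.81% (0.939 to 3.14) in microglia of library 1. Syt1 took 42.6% (38.8 to 46.5) in interneurons and 30.3% in all neurons. These are parts of a total in which Slc17a7 differed, and the Syt1 levels were closer, at 1228 CPM and 1135 CPM. In library 2, Syt1 took 23.2% (17.5 to 29.8) in neurons and 7.44% (5.82 to 9.36) in microglia, and Snap25 took 26.3% (20.2 to 33.1) in neurons and 8.22% (6.51 to 10.2) in microglia.

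**Figure D3:**
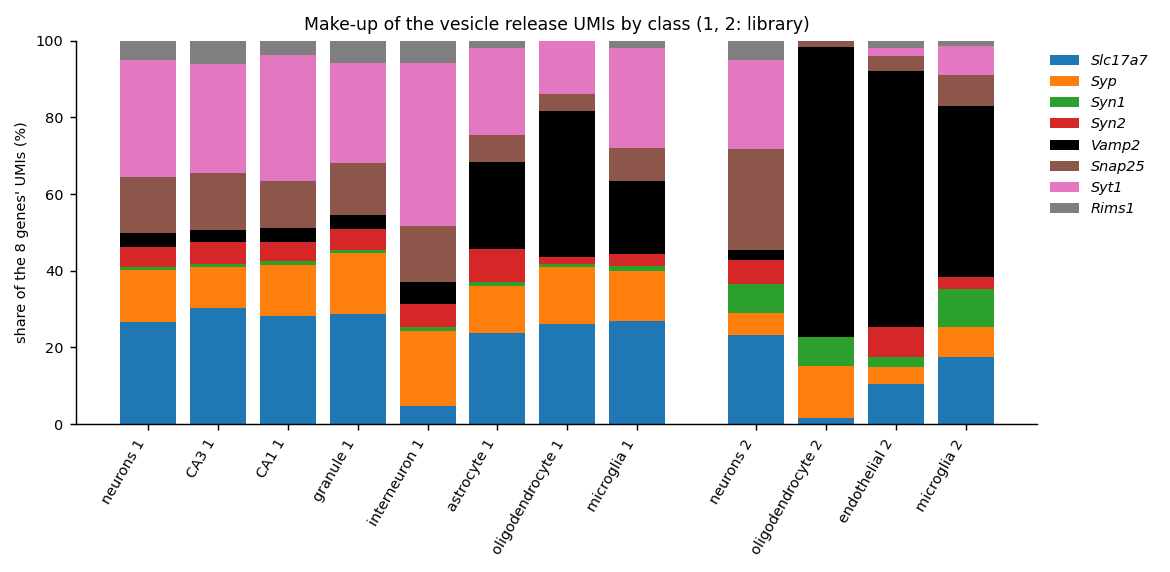
Share of each gene (%) in the summed UMIs of the 8 genes, as stacked bars by class, with library 1 on the left and library 2 on the right. The black Vamp2 band is 3.75% in neurons of library 1 and 75.8% in oligodendrocytes of library 2, and the Slc17a7 band at the base is 4.67% in interneurons.

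Single cells carried few of the genes at once at this depth. With each cell thinned to 1000 UMIs, neurons of library 1 had a median of 3 of the 8 genes, 51.5% had 3 or more and 3.35% had none. Among microglia of library 1, 0.445% had 3 or more and 63.9% had none. CA3 cells had 3 or more in 62.5% of cases and interneurons in 30.4%. In library 2, 58.8% of the 17 neurons and 0.0663% of microglia had 3 or more, and 92.3% of microglia had none. No neuron of either library showed all 8 genes after this thinning. Shares of neurons of library 1 with a UMI ran between 3.30% for Syn1 and 65.6% for Syt1 after thinning, and between 6.30% and 83.7% before it, while microglial shares after thinning ran between 0.445% for Syn1 and 11.7% for Slc17a7.

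**Figure D4:**
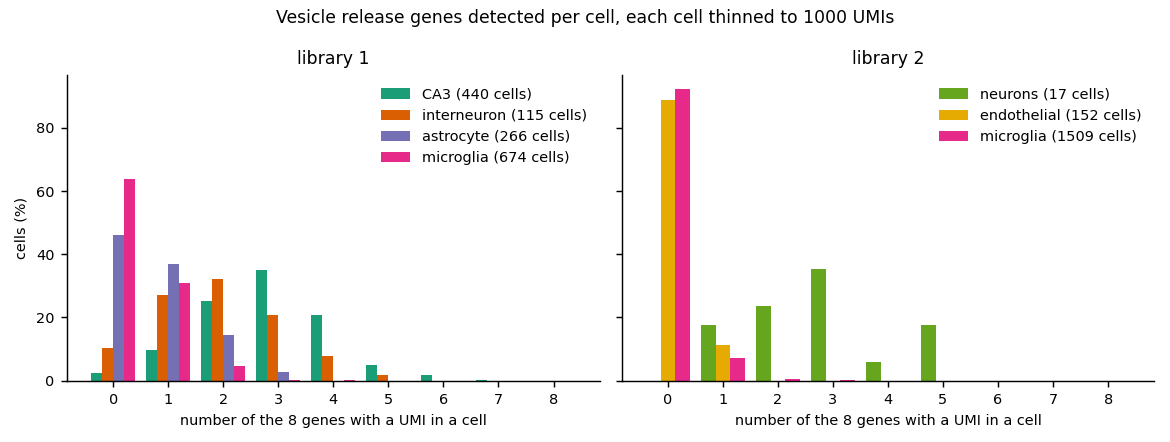
Share of cells (%) by the number of the 8 genes with a UMI, each cell thinned to 1000 UMIs, for 4 classes of library 1 and 3 of library 2. Of microglia, 63.9% in library 1 and 92.3% in library 2 sit at 0 genes, and 62.5% of CA3 cells sit at 3 or more.

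Some genes varied with the depth of the cell. Neurons of library 1 were divided at 1500, 2000 and 3000 UMIs, and the summed level was 3889, 3737, 3642 and 3759 CPM from the shallowest to the deepest cells. Syp had 595, 537, 463 and 436 CPM over these bins, and Snap25 had 492, 500.3, 556 and 665 CPM, so the pair ran in opposite directions with intervals apart at the ends. Slc17a7 had 1018, 1002, 968 and 1008 CPM and was flat. The median mitochondrial share of these cells was 1.05%, 0.858%, 0.708% and 0.571%, and Meg3 had 28900 CPM in the shallowest and 45422 CPM in the deepest cells; their part in the trends was not tested. The shares of neurons that were called granule or CA3 cells moved with depth as well. Called granule cells were 15.3%, 13.2%, 4.60% and 1.499% of the neurons in these bins. Called CA3 cells were 2.65%, 4.97%, 13.5% and 39.6%. A subfield call needs several markers detected in the cell, and many neurons had no call. How far the call itself depends on depth was not tested, so these shares cannot give the mix of subfields. Within CA3 cells Syp had 530.5, 542, 518 and 412 CPM over the bins, with overlapping intervals between the shallowest and the deepest cells. Snap25 in CA3 cells had 511, 504, 613 and 675 CPM, and its end intervals overlapped too. The shallowest CA3 bin held 40 cells and the deepest granule bin 7. Snap25 rose over the bins in CA1 (328, 377, 455 and 528 CPM) and in granule cells (438, 497, 515 and 623 CPM). In interneurons it rose too (237, 357, 453 and 581 CPM). Syp had 610, 558, 416 and 465 CPM in CA1 and 626, 516, 523 and 665 CPM in granule cells. In interneurons Syp had 830, 595, 453 and 501 CPM. End intervals overlapped in each of these subfields. In microglia of library 1 the sum was 518, 483, 425 and 376 CPM in the same bins.

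In library 2 most UMIs of these genes lay outside the cells that were kept. Barcodes under 1000 UMIs, 2370 in number, held 41.6% of the genes' 8491 UMIs at a level of 2125 CPM (2056 to 2197), and 1406 barcodes above 10% mitochondrial UMIs held 29.9% at 307 CPM. The kept cells held 22.7% at 118 CPM. All barcodes of library 2 together had 289 CPM, close to the level above the mitochondrial limit. Of the 29356086 UMIs of all genes, kept cells held 16356544, barcodes above that limit 8280031 and barcodes under 1000 UMIs 1660999. By gene, the kept cells had 49.9% of the Vamp2 UMIs and between 13.7% for Syn1 and 21.0% for Syn2 of those of the other 7 genes. Vamp2 had 48.1 CPM in kept cells and 53.7 CPM in all barcodes of library 2. Syn1 made up 18.4% (17.2 to 19.8) of the genes' UMIs in the barcodes under 1000 UMIs, against 8.65% (7.43 to 9.99) in kept cells. In library 1 the kept cells held 77.5% of the genes' 50777 UMIs at 2975 CPM, against 2703 CPM in all barcodes. Barcodes of library 1 under 1000 UMIs held 11.8% at 1783 CPM.

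**Figure D5:**
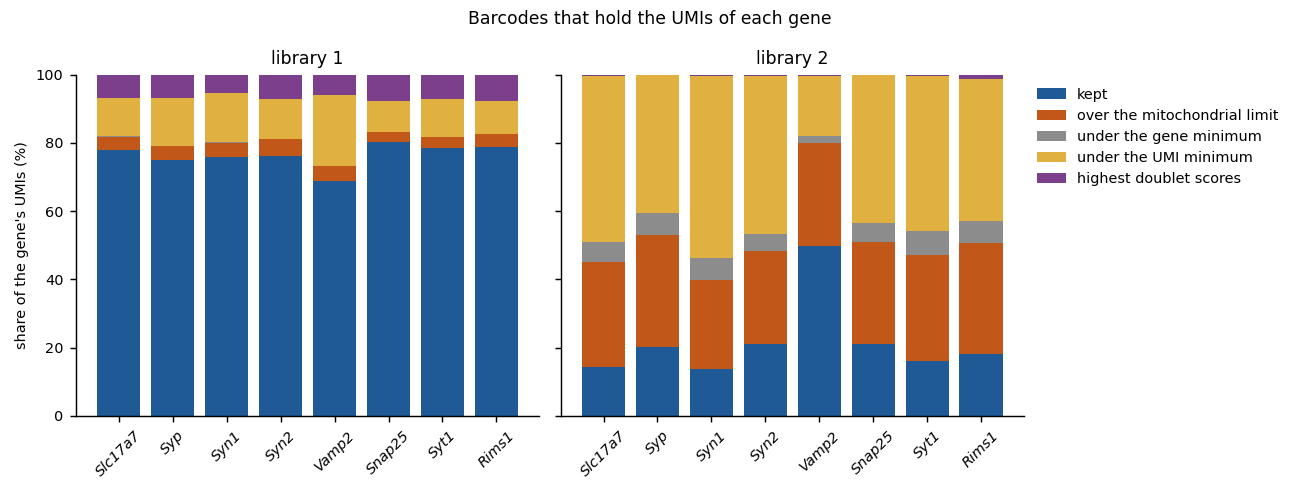
Share (%) of each gene's UMIs by group of barcodes in library 1 and library 2, as stacked bars in which blue marks kept cells. In library 2 the blue part is 49.9% for Vamp2 and at most 21.0% for the other 7 genes, and in library 1 it is 68.9% for Vamp2 and at most 80.2%, for Snap25.

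Of the 84 other genes of release, 74 could be tested in library 1. By the same 4-fold limit 50 were higher and 3 lower in neurons than in microglia, and their median log2 ratio was 2.99, against 0.39 over all genes tested, where 26.1% were higher and 16.5% lower. The lists were made with results of these data known, so their direction is no independent evidence. Among SNARE proteins and their helpers 9 of 15 were higher and none lower. Nsf, the ATPase that takes spent SNARE complexes apart, had 365 CPM in neurons and 45.8 CPM in microglia. Stxbp5l (tomosyn 2), an inhibitor of SNARE assembly, had 401 CPM in neurons and 9.17 CPM in microglia, a ratio of 43.8 (26.1 to 80.2). Cplx2, a complexin, had 51.3 CPM in neurons and 10.5 CPM in microglia, with 120.4 CPM in granule cells and 21.7 CPM in interneurons.

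Among synaptotagmins 8 of 10 tested were higher in neurons. Syt7, a slow high-affinity calcium sensor, had 448 CPM in neurons and 34.0 CPM in microglia, a ratio of 13.2 (10.0 to 17.7), and was uneven among subfields, with 764 CPM in granule cells and 169 CPM in interneurons. Syt4 had 196 CPM in neurons and 35.4 CPM in microglia. Syt11 had 351 CPM in neurons and 149 CPM in microglia, under the limit, and 1428.5 CPM in oligodendrocytes. Of 12 vesicle membrane proteins tested 7 were higher and 1 lower, Syngr1 (a synaptogyrin, named after its values were seen), with 45.5 CPM in neurons and 470.1 CPM in microglia. Sv2a had 313 CPM in neurons and 91.0 CPM in microglia and missed the limit. Sv2b had 259 CPM in neurons and 22.9 CPM in microglia, and among subfields 373 CPM in CA3 and 307 CPM in CA1, against 32.2 CPM in granule cells and 30.4 CPM in interneurons. Synpr (synaptoporin), a relative of Syp, showed another order: 293 CPM in granule cells, 247 CPM in interneurons, 70.1 CPM in CA3 and 27.4 CPM in CA1. Rab3c, a vesicle GTPase, and Rph3a, its effector rabphilin, were highest in interneurons, at 299 CPM and 156 CPM.

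The active zone list was the most uniform: 14 of 15 tested were higher in neurons, with a median log2 ratio of 4.22, and the exception was Cask (named after its values were seen), at 50.3 CPM in neurons and 93.0 CPM in microglia. Erc2 (CAST), an active zone scaffold, had 302 CPM in neurons and 13.1 CPM in microglia, with 652 CPM in granule cells and 99.8 CPM in interneurons. Ppfia2 (liprin alpha 2) had 417 CPM in granule cells and 43.4 CPM in interneurons. Cadps, a priming factor of dense core vesicles, had 389 CPM in neurons and 21.0 CPM in microglia, and Tspoap1, a RIM-binding protein, had 269 CPM and 12.4 CPM in the same order. Cadps2 had 121 CPM in CA1 and 16.8 CPM in granule cells, with 1 UMI in microglia.

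Of 7 vesicle filling genes tested 4 were higher: Slc32a1, Slc6a17, Slc17a6 and Atp6v1g2. Slc17a6 (VGLUT2), with 14.2 CPM in neurons and 2 UMIs in microglia, and Atp6v1g2, with 106 CPM in neurons and 19.6 CPM in microglia, were named after their values were seen. Slc6a17, a vesicular transporter of neutral amino acids, had 222 CPM in neurons and 15.7 CPM in microglia. The proton pump subunit Atp6v0a1 had 235 CPM in neurons and 86.4 CPM in microglia, and Atp6ap2 had 179 CPM in neurons and 242 CPM in microglia, both within the limit. Of 15 recycling genes 8 were higher, with Dnm1, the neuronal dynamin, at 189 CPM in neurons and 20.3 CPM in microglia. Synj1 (synaptojanin) had 189 CPM in neurons and 70.7 CPM in microglia, a ratio of 2.67. The 2 lower ones were Bin1, at 229.9 CPM in neurons and 939 CPM in microglia, and Picalm (named after its values were seen), at 108 CPM in neurons and 526 CPM in microglia. Between interneurons and granule cells 11 of 68 pathway genes were higher and 10 lower by the 2-fold limit, where 9.47% and 16.0% of all genes were.

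Genes of the most similar pattern were ranked by Pearson's r with the mean of the 8 genes (each log2 of CPM plus 10) over 9 classes, 7 of library 1 and 2 of library 2, among 8407 genes. These 9 points share libraries and 4 are neuronal, so r is a description and carries no p. The first were Tmem59l (r = 0.997), Reep2 and Ntrk3 (both 0.994) and Gpr22 and C78859, followed by D430042O09Rik, Scn2a, Timm9, Psd and Slc4a10 (0.991). Of the 8 genes themselves Snap25 was closest to the mean at 0.993, and Vamp2 farthest at 0.689. Each of the 8 is part of that mean, so its r cannot be set beside those of the other genes.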

How the data were processed

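The authors deposited whole-number UMI counts, not normalized, of 41605 genes by barcode for 2 libraries. The submitters' processing notes name Cell Ranger 3.0.1 and GRCm38.p5; no source used here gives the strand setting. No column of per-sample values went unused (0). The 8 genes, the pathway lists and the markers were chosen with earlier results of these data known, and each library is a single unassigned pool.

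Cells were kept with at least 1000 UMIs, 500 genes and at most 10% mitochondrial UMIs. Scrublet (scanpy 1.11.5) marked 0.0277% and 0.139% of cells by its automatic threshold, which is too few, so the expected share of highest scores (0.8% per 1000 cells) was removed, 416 cells in library 1 and 37 in library 2. A cell entered 1 of 14 classes by its share of UMIs in that class's markers, for example at least 1% for neurons and 3% for microglia with at least 4 markers detected, and limits on the markers of the other classes. These limits were set after seeing marker shares, not the 8 genes. Cells that passed a gate but exceeded the limit on another class's markers (554 in library 1, 177 in library 2) were left out. So were cells that passed no gate (845 and 122). Subfields needed 3 markers of their own, with a lead of 2 over any other.

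UMIs were summed over the cells of a class and divided by its total UMIs (CPM), and no cell served as a replicate. The 95% intervals are exact (Poisson for levels, Clopper-Pearson for shares, conditional binomial for ratios; scipy 1.17.1, numpy 2.4.6) and cover counting error only. A count of 0 is read as allowing 3. No p-value was computed. Ratios were called at 4-fold between classes and 2-fold between subfields, among genes with at least 10 CPM in either class and 20 UMIs over both. For shares of cells, each cell was thinned to 1000 UMIs. The calculations were tested on simulated data. Genes named are all 8 members, the up to 3 most abundant of each pathway list in neurons, those with at least 4-fold between subfields and 50 CPM in the highest, the 10 of most similar pattern and annotated overlapping genes; a few named outside this rule are marked, and 2 that it names are not reported here. Gene positions come from GENCODE on GRCm38 and upstream sequences from RefSeq on GRCm38.p6. Alternatives were other limits on depth and mitochondrial share, no doublet removal, a stricter gate, Leiden clusters (leidenalg 0.10.2) made without the 8 genes, CPM without mitochondrial, ribosomal protein and haemoglobin genes, a mean over cells, other folds, a higher CPM minimum and thinning to 2000 UMIs.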

Additional observations from a re-analysis of the deposited data

Results flagged for a closer look

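In library 2, 3 groups of barcodes that the report's comparisons do not use carried the 8 genes above their level in microglia of the same library, 88.6 CPM. Barcodes under 1000 UMIs had 2125 CPM (2056 to 2197) over the 8 genes. Barcodes above 10% mitochondrial UMIs had 307 CPM (295 to 319), beside 289 CPM (283 to 295) over all barcodes of library 2. Barcodes with enough UMIs but under 500 genes had 169 CPM (154 to 186). No cell class was given to any barcode of these 3 groups.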

How the results depend on the processing

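The summed level in neurons of library 1 (3745 CPM) was 3691 CPM with at least 2000 UMIs a cell, 3791 CPM with the stricter gate, 3646 CPM with Leiden clusters and 3824 CPM without mitochondrial, ribosomal protein and haemoglobin genes, beyond its counting interval each time. Without those genes microglia had 476 CPM in library 1 and 103 CPM in library 2, and a mean over cells gave 95.8 CPM in library 2. Genes called higher in neurons numbered 6 or 7 in library 1 over 10 alternatives, with 6 under the minimum of 50 CPM, where Syn1 was not tested, and 6 to 8 in library 2. Vamp2 was called in library 2 with the 20% mitochondrial limit (ratio 5.02), the Leiden clusters (7.13) and a fold of 2. The called pathway genes numbered 46 to 50. Between subfields, 2 of the 8 genes were called with Leiden clusters (Slc17a7 and Rims1) and 3 at a fold of 1.5 (also Snap25). The highest subfield of Syp, Syn1, Vamp2 and Syt1 changed with the gate or the depth limit; for Syn1 it was interneurons with Leiden clusters, at 1.70 times the lowest. No ratio of neurons over microglia crossed 1. In library 2 the ratio of Slc17a7 ran between 17.6 and 76.1 and that of Syn1 between 7.50 and 56.2, lowest with the stricter gate and highest with at least 500 UMIs. An alternative chosen after seeing the data, microglia gated with no limit on neuronal markers, gave 452 CPM in library 1 and 88.8 CPM in library 2. The causes of these differences were not tested. No paired analysis was possible because each library is 1 pool with no assigned group. Depth limits the values of the 17 neurons of library 2, and those of Syn1 and Rims1 in microglia, at 9 and 12 UMIs in library 1.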
